A study of Mus musculus with 4 samples.

Results

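The 36 genes described here build and run the meiotic chromosome: they pair homologous chromosomes, hold them together (synapsis), cut their DNA and turn the cuts into exchanges (recombination). They were taken by symbol from the feature table of a single-nucleus RNA-seq data set of whole mouse testis, where all 36 were found among 55357 genes, and the rule used no expression value, although earlier results of these data were known when the genes were chosen. Their UMIs (unique molecular identifiers, each counting 1 captured RNA molecule) were read in all 4 libraries, in nuclei sorted into germ cell stages by marker genes that include no member. Male mice aged 8 weeks gave 2 libraries of each of 2 genotypes. The Dhx37-/- libraries came from mice with floxed alleles of Dhx37, an RNA helicase gene, and an Amh-Cre transgene, whose promoter is active in Sertoli cells from the fetal testis on, so that deletion was directed at these somatic nurse cells and the germ cells were not targeted. The WT libraries came from littermates. The floxed line was C57BL/6 based, the loxP sites flank exon 2, and the labels call the 2 libraries of a genotype biological replicates without naming the animals. Values of a gene in the 4 libraries are given throughout in the order WT replicate 1, WT replicate 2, Dhx37-/- replicate 1, Dhx37-/- replicate 2, in CPM, the UMIs of the gene divided by all UMIs of the gate and multiplied by 1000000. A gate is a set of nuclei that share the UMIs of 1 marker list.

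Meiosis is the pair of divisions that makes haploid spermatids from spermatogonia. In its long prophase (leptotene, zygotene, pachytene and diplotene), cohesin and HORMA domain proteins form an axis along each chromosome, SPO11 and its partners break the DNA at sites marked by PRDM9, recombinases search the homolog for a repair template, and the synaptonemal complex zips the axes together. The ZMM proteins and MutL gamma then turn some of the repair sites into crossovers.

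The members fall into 6 groups by role. The synaptonemal complex has 7 (Sycp1, Sycp2, Sycp3, Syce1, Syce2, Syce3, Tex12), meiotic cohesin has 5 (Smc1b, Smc3, Rec8, Rad21l, Stag3) and the HORMA axis with its remodeller has 3 (Hormad1, Hormad2, Trip13). Break formation has 6 (Prdm9, Spo11, Mei1, Mei4, Rec114, Ankrd31), strand exchange and repair has 7 (Meiob, Spata22, Dmc1, Hsf2bp, Mcmdc2, Rad51ap2, Tex15) and the crossover group has 8 (Msh4, Msh5, Mlh3, Rnf212, Ccnb1ip1, Tex11, Shoc1, Hfm1). In the GENCODE vM21 annotation 9 of the 35 members found there overlap another gene on the same strand (Trip13, Mei4, Rec114, Ankrd31, Spata22, Dmc1, Mlh3, Ccnb1ip1 and Hfm1), so that part of their UMIs could belong to the overlapping gene.

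The libraries held 51797891 to 75611263 UMIs in all barcodes, and 8288 to 10302 nuclei per library (37467 in all) were kept, with a median of 3307 to 4219 UMIs. Each pair of libraries shared 20 to 29 barcodes. Nuclei with more than 5000 genes, which were kept here, made up 0.131% and 0.181% of the WT libraries and 2.27% and 2.93% of the Dhx37-/- libraries (exact permutation test, two-sided, p = 0.333, the smallest that 2 against 2 libraries allow). Dhx37 itself was not taken as a check of the genotype labels. The loxP sites flank exon 2, the libraries are read from the 3′ end, and where the Dhx37 reads lie was not examined. In nuclei of the Sertoli gate Dhx37 had 7, 4, 23 and 33 UMIs, or 10.5, 17.8, 10.2 and 9.38 CPM, so that the WT values rest on few UMIs.

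Markers placed 321 nuclei in the spermatogonia gate, 472 in early meiotic prophase, 1939 in pachytene to diplotene spermatocytes, 3885 in round spermatids and 8361 in elongating spermatids, and 18611 nuclei passed no gate. Substages within a gate were not separated. The gate names stand for marker lists. Of the markers, 13 of 16, 13 of 13, 16 of 19, 10 of 17 and 14 of 14 were highest in their own gate, the lowest share being that of the round spermatid gate. The gates were set by these same markers, so the counts are no independent check of them. Many nuclei lay close to the limits: 196 of the 472 early prophase nuclei and 323 of the 1939 pachytene to diplotene nuclei had a posterior of 0.95 to 0.99, and 332 and 455 further nuclei fell just short, at 0.8 to 0.95. Those at 0.95 to 0.99 were 52, 28, 24 and 92 of 87, 53, 82 and 250 nuclei by library in early prophase. In pachytene to diplotene they were 128, 56, 66 and 73 of 392, 276, 536 and 735. No gate's share passed an exact permutation test between genotypes (two-sided p = 0.333 or 0.667), which 2 against 2 libraries could not do at any size of difference. The pachytene to diplotene gate held 3.96%, 3.33%, 5.97% and 7.13% of kept nuclei. Nuclei that passed no gate made up 66%, 58.6%, 33.1% and 41.2%, and the median UMI count of kept nuclei was 3307, 3671, 3794 and 4219. Their part in the gate shares was not tested.

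Summed over all 36 members, transcripts were most abundant in early meiotic prophase in every library. Their share of all UMIs, pooled over libraries of unequal size, was 0.444% in spermatogonia, 0.726% in early prophase, 0.423% in pachytene to diplotene, 0.295% in round spermatids and 0.178% in elongating spermatids, against 0.101% in a pool of 3220 somatic nuclei. That pool joins the Sertoli, Leydig, macrophage, peritubular myoid and fibroblast gates, and the 658 nuclei of the endothelial gate were left out of it. By library, the members summed to 3290, 3347, 4582 and 5207 CPM in spermatogonia, to 4999.9, 3984, 7362 and 8325 CPM in early prophase and to 3368, 3597, 3969 and 4678 CPM in pachytene to diplotene. Spermatogonia thus stood below pachytene to diplotene in the WT libraries and above it in the Dhx37-/- libraries. A median early prophase nucleus held UMIs of 12 members, and a median somatic nucleus held UMIs of 3. Free RNA outside nuclei, read from barcodes far below the nuclei in UMIs, carried the members at 2701 to 3261 CPM, which overlaps the summed level in round spermatids (2852 to 3048 CPM) and is above that in elongating spermatids (1491 to 1879 CPM). The free RNA level of a gene is therefore given as a range over the 4 libraries where its spermatid level is first described. The share of free RNA in each nucleus was not tested.

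By the mean over the 4 libraries, 20 members were highest in early prophase, 7 in pachytene to diplotene (Syce1, Hormad1, Spo11, Hsf2bp, Mlh3, Ccnb1ip1, Shoc1), 4 in spermatogonia (Smc3, Trip13, Mei4, Tex11), 3 in elongating spermatids (Syce2, Syce3, Dmc1) and 2 in round spermatids (Rec8, Rec114). For most members the ranges of the highest and the next gate over the libraries overlapped. Only Stag3 and Hfm1 in early prophase, Hsf2bp and Mlh3 in pachytene to diplotene, and Trip13 in spermatogonia had every library of the highest gate above every library of the next gate. Compared within each library, the highest gate also lay above the next in all 4 libraries for other members. These were Sycp1, Sycp2, Syce2, Syce3, Tex12, Smc3, Rec8, Prdm9, Spo11, Mei1, Meiob and Mcmdc2.

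**Figure D1:**
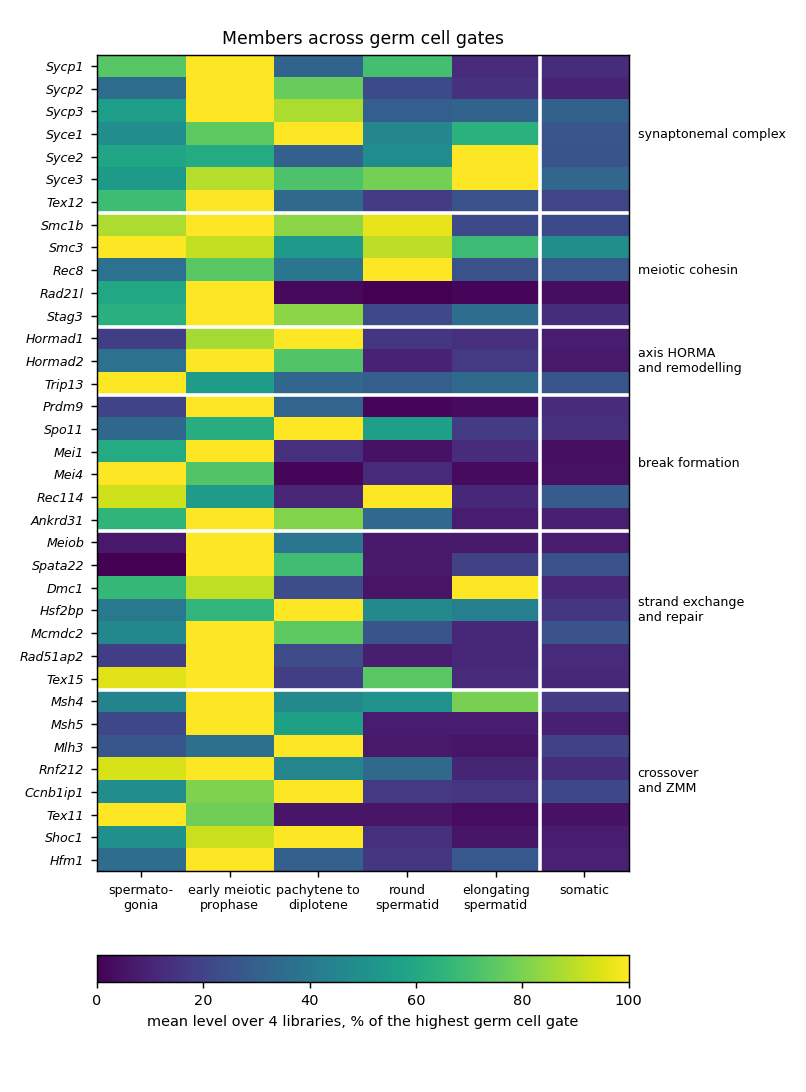
Mean level of each of the 36 members over the 4 libraries in 5 germ cell gates and the somatic pool, as a percent of the member's highest germ cell gate (colour scale 0 to 100%), with rows grouped by role. The early meiotic prophase column holds the maximum of 20 members, and Rec8, Rec114, Syce2, Syce3 and Dmc1 peak in a spermatid column.

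In the synaptonemal complex group, Sycp1, the transverse filament that bridges the axes, had the most UMIs (40073 in kept nuclei). Its level was 446, 370.1, 552 and 620.0 CPM in spermatogonia, 464, 404, 847 and 971 CPM in early prophase and 219, 161, 199.8 and 288 CPM in pachytene to diplotene. It was high again in round spermatids, at 492, 477, 472 and 439 CPM, at the top of or above its range in free RNA (177 to 472 CPM). Sycp2 and Sycp3, the lateral element proteins, had their highest means in early prophase, at 663 ± 314 and 201 ± 103 CPM (SD, n = 4 libraries). For Sycp3, early prophase lay above pachytene to diplotene in the Dhx37-/- libraries and below it in the WT libraries. The central element genes split. Syce1 was highest in pachytene to diplotene (122 to 165 CPM), and Tex12, with the fewest UMIs of the group (1480), in early prophase (16.2 to 57 CPM). Syce2 and Syce3 were highest in elongating spermatids, at 187 to 239 and 128 to 163 CPM, but their free RNA levels were 174 to 318 and 171 to 384 CPM, which cover or exceed those values.

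Of the cohesins, Smc1b, the meiotic SMC1 subunit, had the most UMIs (51307). Its level was 323, 406, 534 and 621 CPM in spermatogonia, 474, 454, 569 and 651 in early prophase, 501, 559.5, 381 and 332 in pachytene to diplotene and 474, 497, 563 and 535 in round spermatids, so that its ranges overlapped across 4 gates, and it stood at 88.9 to 147 CPM in elongating spermatids (free RNA 263 to 414 CPM). Smc3, shared with mitotic cohesin, was broad and had a somatic level of 97.9 ± 10.6 CPM. The kleisins, which close the cohesin ring, differed in timing. Rec8 was highest in round spermatids (79.4, 109, 74 and 75.4 CPM, free RNA 33.3 to 76.2 CPM). Rad21l had only 133 UMIs in all kept nuclei, and 4, 2, 9 and 34 of them were in early prophase, 1, 0, 1 and 5 in pachytene to diplotene and none in round spermatids. A count of 0 among the 18698072 UMIs of that gate allows Rad21l up to 0.16 CPM (3 counts, for counting error only). Stag3, the meiosis-specific cohesin subunit that binds the kleisin, was highest in early prophase (185 to 207 CPM), above the 139 to 180.4 CPM of pachytene to diplotene.

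Hormad1 and Hormad2, which mark unsynapsed axes, had their highest means in the spermatocyte gates. Hormad1, with the most UMIs of its group (13769), rose from 41.9, 56.5, 70.5 and 85.4 CPM in spermatogonia to 162, 141, 429 and 454 CPM in early prophase and stood at 246, 308, 386 and 432 CPM in pachytene to diplotene and 52.9, 40.3, 66.4 and 64.6 CPM in round spermatids, where every library was under the 90.8 to 133 CPM of free RNA. Hormad2 was at 116 to 439 CPM in early prophase and 118 to 353 CPM in pachytene to diplotene. Trip13, the ATPase that strips HORMA proteins from synapsed axes, had the fewest UMIs of the group (4696) and was highest in spermatogonia (50.8, 46.3, 79.7 and 101 CPM).

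Break formation genes peaked at different times. Ankrd31, a partner of REC114 needed for breaks in the pseudoautosomal region, had the most UMIs (21145), with 227, 211, 349.6 and 388 CPM in spermatogonia, 377, 293, 546 and 576 in early prophase, 347, 332, 333 and 442 in pachytene to diplotene and 169, 163, 155 and 128 in round spermatids (free RNA 48.5 to 134 CPM). Prdm9, with the fewest (793), was highest in early prophase in every library (42.2, 55.5, 59.7 and 72.5 CPM). Spo11, the enzyme that cuts, was highest in pachytene to diplotene in every library (53.4 to 97.6 CPM against 15.1 to 72.7 CPM in early prophase). Mei1 was highest in early prophase (40.4 to 129.9 CPM) and Mei4 in spermatogonia (10.3 to 130.2 CPM), each with a wide spread over the libraries. Rec114 had its highest mean in round spermatids (60.2, 126, 83 and 73.2 CPM), above its free RNA level of 11 to 20.5 CPM.

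Among the repair genes, Tex15, needed to load recombinases, had the most UMIs (41908). Its level was 502, 473, 846 and 893 CPM in spermatogonia, 708, 495, 811 and 826 in early prophase, 159.5, 149, 118 and 101 in pachytene to diplotene and 598, 439.9, 561 and 513 in round spermatids (free RNA 87.6 to 252 CPM), so that pachytene to diplotene was a trough between higher gates. Dmc1, the meiotic recombinase, had its highest mean in elongating spermatids. Meiob, a single-strand DNA binding protein, and its partner Spata22 were highest in early prophase, but Spata22 had 24 UMIs in all kept nuclei and is not described further. Hsf2bp, a BRCA2 partner, was highest in pachytene to diplotene (115 to 173 CPM). By the mean, Mcmdc2 and Rad51ap2 were highest in early prophase, at 16.2 to 77.4 and 3.25 to 49.4 CPM, the Dhx37-/- libraries forming the upper end for both. The WT libraries held 5 and 4 UMIs of Mcmdc2 there and 1 and 1 of Rad51ap2.

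In the crossover group, Msh4, which pairs with MSH5 in MutS gamma, had the most UMIs (6714). It was at 55.2, 70.7, 90.9 and 88.8 CPM in early prophase, 49.5, 43, 23.3 and 39.6 in round spermatids and 66.4, 77.2, 47.7 and 51.6 in elongating spermatids (free RNA 25.5 to 48.9 CPM). Msh5 was highest in early prophase (40.4 to 139 CPM). Mlh3, a MutL gamma subunit that acts late at crossover sites, was highest in pachytene to diplotene (136 to 190.4 CPM). The RING proteins Rnf212 and Ccnb1ip1 had their highest means in early prophase, 40.1 ± 33.2 CPM, and in pachytene to diplotene, 11.9 ± 3.56 CPM (mean ± SD, n = 4), and Ccnb1ip1 had the fewest UMIs of the group (573). By the mean, Tex11 was highest in spermatogonia (72 to 339 CPM), Shoc1 in pachytene to diplotene (97.1 to 197 CPM) and the helicase gene Hfm1 in early prophase (80.8 to 284 CPM). Spermatogonia exceeded early prophase for Tex11 in the Dhx37-/- libraries only. Pachytene to diplotene exceeded early prophase for Shoc1 in 1 of 4 libraries, WT replicate 2.

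Each stage was then compared with the one before it, with the library as a block, so that each comparison is made within libraries (edgeR quasi-likelihood test on UMI sums, adjusted over all genes tested). From spermatogonia to early meiotic prophase, 11 of the 29 members tested rose (Ankrd31, Sycp3, Rec8, Shoc1, Msh4, Hormad2, Sycp2, Hfm1, Prdm9, Hormad1 and Msh5) and 2 fell, while 8.88% of all genes tested rose and 10.3% fell. The median log2 fold change was 0.62 over the members and -0.01 over all genes. The rises comprised 4 of 7 crossover genes tested, 2 of 3 HORMA axis genes, 2 of 6 synaptonemal complex genes, 2 of 6 break formation genes, 1 of 4 cohesins and 0 of 3 strand exchange genes. Tex12, Rad21l, Meiob, Spata22, Mcmdc2, Rad51ap2 and Ccnb1ip1 had too few UMIs to be tested.

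Msh5 had the largest rise, from 12, 10.3, 24.5 and 18.2 CPM to 45.5, 40.4, 77.9 and 139 CPM. Every early prophase library lay above every spermatogonia library, a 4.72-fold rise (log2 fold change 2.24, SE 0.34, adjusted p = 0.000634). The ranges of Hormad1, given above, were also apart (4.44-fold, log2 fold change 2.15, SE 0.23, adjusted p = 3.64e-05). Prdm9 went from 8.97, 0, 15.3 and 22.4 CPM to 42.2, 55.5, 59.7 and 72.5 CPM (4.03-fold, log2 fold change 2.01, SE 0.39, adjusted p = 0.00284), with no UMI in spermatogonia of WT replicate 2. Hfm1 went from 80.8, 41.1, 64.4 and 64.4 CPM to 114, 80.8, 221 and 284 CPM, where the lowest early prophase library stood just above the highest spermatogonia library (2.71-fold, log2 fold change 1.44, SE 0.27, adjusted p = 0.00255).

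The falls were Trip13 and Rec114. Trip13 went from 50.8, 46.3, 79.7 and 101 CPM to 39, 30.3, 39 and 44 CPM, with no overlap (log2 fold change -0.96, SE 0.28, adjusted p = 0.0262). Rec114, an early partner of MEI4 in break formation, was lower in early prophase in each library (35.7, 75.7, 36.4 and 40.7 CPM against 65.8, 82.3, 67.5 and 102 CPM), though the ranges overlapped through WT replicate 2 (log2 fold change -0.95, SE 0.28, adjusted p = 0.028). Both falls were lost with DESeq2, without the filter on low counts and without either Dhx37-/- replicate, and that of Rec114 also without WT replicate 1. The rise of Hfm1 was lost without Dhx37-/- replicate 2. Those of Ankrd31, Sycp3, Rec8, Shoc1 and Msh4 were lost with DESeq2 and without either Dhx37-/- replicate. The calls of Ankrd31, Rec8 and Shoc1 were also lost without WT replicate 1, and those of Sycp3 and Shoc1 without doublets. That of Shoc1 was further lost with other normalization and without nuclei above 5000 genes. Of rises and falls together, 13 members passed against 19.1% of all genes, 6 with DESeq2 (8.83%), 6 of 30 tested without Dhx37-/- replicate 1 (7.97%), 5 of 29 without Dhx37-/- replicate 2 (6.91%) and 18 of 30 without WT replicate 2 (25.9%). When each nucleus was thinned to 1000 UMIs, 12 members had enough UMIs to be tested, Hormad1 and Sycp2 passed (10.6% of all genes), and neither falling gene was tested.

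The letters before the start of 3 of these 4 rising genes are shown because sequence motifs that a script searched there fall in them. The windows are the 250 bases before the gene start in RefSeq (GRCm38.p6), written in the direction of transcription. Capitals mark CNCCTCAG, the motif bound by STRA8 and MEIOSIN, which switch on meiotic genes, CACGTG (E-box) or GGCGGGAA (E2F), on either strand, so that CTGAGGTG and CTGAGGCG are reverse-strand matches of CNCCTCAG. The windows lie at chr3:95559427-95559676, plus strand for Hormad1, chr17:35046623-35046872, minus strand for Msh5 and chr5:106925891-106926140, minus strand for Hfm1.
Hormad1: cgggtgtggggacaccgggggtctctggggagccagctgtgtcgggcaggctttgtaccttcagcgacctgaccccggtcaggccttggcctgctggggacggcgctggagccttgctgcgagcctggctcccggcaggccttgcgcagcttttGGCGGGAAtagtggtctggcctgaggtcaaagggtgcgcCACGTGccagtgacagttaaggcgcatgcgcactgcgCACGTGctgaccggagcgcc
Msh5: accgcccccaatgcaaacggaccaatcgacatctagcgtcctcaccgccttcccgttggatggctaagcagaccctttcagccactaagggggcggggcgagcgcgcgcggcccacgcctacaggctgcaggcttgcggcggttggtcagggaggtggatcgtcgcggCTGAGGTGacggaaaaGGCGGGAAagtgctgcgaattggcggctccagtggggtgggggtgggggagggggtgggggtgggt
Hfm1: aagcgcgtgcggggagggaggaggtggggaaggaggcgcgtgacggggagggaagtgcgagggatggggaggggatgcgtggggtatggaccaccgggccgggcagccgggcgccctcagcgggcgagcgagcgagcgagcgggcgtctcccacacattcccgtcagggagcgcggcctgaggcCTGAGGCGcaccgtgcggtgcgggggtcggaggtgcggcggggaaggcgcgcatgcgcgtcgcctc
A window was found for 30 of the 36 members. CNCCTCAG was in 3 of the 30 (10%, Hfm1, Hormad2 and Msh5) against 6.39% of 27025 windows of all genes, CACGTG in 6 (20%) against 6.05% and GGCGGGAA in 5 (16.7%) against 1.88%. The median GC content was 58.4% in member windows and 52% in all windows. The 3 windows were chosen after the matches were seen, and a match is a description of letters, not of binding.

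From early prophase to pachytene and diplotene, falls predominated. Of 34 members tested, 17 fell and 2 rose, against 22.9% and 21.7% of all genes tested, and the median log2 fold change was -0.77 over the members and -0.01 over all genes. Falls passed the test in 4 of 6 break formation genes (Mei4, Rec114, Mei1, Prdm9), 4 of 8 crossover genes (Tex11, Msh4, Hfm1, Rnf212), 3 of 5 cohesins (Rad21l, Rec8, Smc3), 3 of 7 synaptonemal complex genes (Sycp1, Syce2, Tex12) and 3 of 5 repair genes (Tex15, Dmc1, Meiob), and in none of the 3 HORMA axis genes. Spata22 and Rad51ap2 were not tested. The falls of Msh4, Smc3, Syce2 and Meiob were lost without either Dhx37-/- replicate, and that of Rec8 without Dhx37-/- replicate 2. The fall of Rnf212 was lost with DESeq2, without the filter on low counts and without Dhx37-/- replicate 1. Without Dhx37-/- replicate 2 Rnf212 was not tested.

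Mei4, whose protein forms break-promoting foci on the axis, went from 45.5, 30.3, 70.1 and 83.1 CPM to 1.39, 0, 1.26 and 1.21 CPM (2, 0, 5 and 8 UMIs). It was nearly undetected in pachytene to diplotene in every library (log2 fold change -5.72, SE 0.42, adjusted p = 4.87e-07). Rad21l went from 13, 10.1, 23.4 and 27.7 CPM to 0.694, 0, 0.252 and 0.756 CPM (log2 fold change -5.16, SE 0.55, adjusted p = 9.01e-06), on the few UMIs given above, and it had too few UMIs to be tested without Dhx37-/- replicate 2. Tex11 went from 169, 85.8, 104 and 178 CPM to 13.9, 12.7, 8.33 and 6.8 CPM, a 13.3-fold fall with no overlap (log2 fold change -3.74, SE 0.31, adjusted p = 1.37e-06). Mei1 went from 129.9, 40.4, 112 and 124 CPM to 14.6, 12.7, 15.6 and 11.5 CPM, 7.24-fold lower (log2 fold change -2.86, SE 0.29, adjusted p = 6.42e-06).

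The rises were Mlh3 and Hsf2bp. Mlh3 went from 64.9, 55.5, 59.7 and 61.9 CPM to 151, 136, 177 and 190.4 CPM, and all libraries of the later gate lay above all of the earlier (2.93-fold, log2 fold change 1.55, SE 0.22, adjusted p = 8.98e-05). Hsf2bp went from 114, 70.7, 101 and 105 CPM to 173, 165, 115 and 139.9 CPM (1.57-fold, log2 fold change 0.65, SE 0.22, adjusted p = 0.0248), and this call was lost without WT replicate 2 or without Dhx37-/- replicate 2. Thinned to 1000 UMIs, 11 of 24 members tested passed (35.2% of all genes), 9 of them among the 19, with Stag3 and Sycp2 added. The calls of Hsf2bp, Msh4 and Smc3 were lost there, and 7 others of the 19, Mei4, Rad21l and Mei1 among them, were not tested. Leaving out Dhx37-/- replicate 2 left 11 of 31 tested (28.8% of all genes). The stages are not fully apart, since pachytene to diplotene markers summed to 1688, 1404, 2141 and 2336 CPM in the early prophase gate and to 4474, 4540, 5023 and 5011 CPM in their own.

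**Figure D2:**
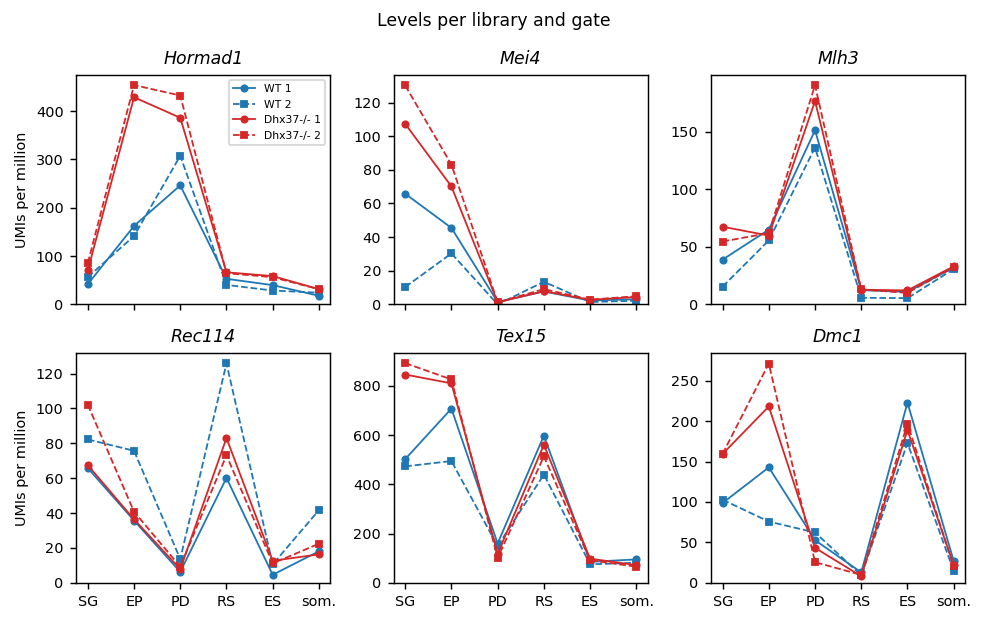
Level in CPM in each of the 4 libraries (WT in blue, Dhx37-/- in red) across spermatogonia (SG), early prophase (EP), pachytene to diplotene (PD), round (RS) and elongating (ES) spermatids and the somatic pool (som.) for 6 members. Mlh3 peaks at 136 to 190 CPM in pachytene to diplotene, Mei4 is at 1.39 CPM or less there, Rec114 and Tex15 have a trough there, and Dmc1 stands at 173 to 223 CPM in elongating spermatids.

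From pachytene and diplotene to round spermatids, 9 of 34 members tested rose and 17 fell, against 35.8% and 36.5% of all genes tested. The median log2 fold change was -0.72 over the members and -0.10 over all genes. Among the groups, 4 of 8 crossover genes fell and none rose, 4 of 6 repair genes fell and Tex15 rose, and 2 of 3 HORMA axis genes fell. Among the 4 cohesins tested Rec8, Smc1b and Smc3 rose and Stag3 fell. Smc1b, by the values above, was higher in round spermatids in the Dhx37-/- libraries and lower in the WT libraries, and its call was lost when thinned to 1000 UMIs and without Dhx37-/- replicate 1. Of the synaptonemal complex genes, Sycp1, Syce2 and Syce3 rose and Sycp2, Syce1 and Sycp3 fell. The call of Sycp2 was lost without nuclei above 5000 genes, without doublets and without either Dhx37-/- replicate, and that of Syce3 when thinned, without WT replicate 1 and without either Dhx37-/- replicate. Rad21l and Spata22 were not tested. Thinned to 1000 UMIs, 18 of 24 members tested passed (75%, against 73.9% of all genes), and Mei4 and Prdm9 were not tested.

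Rec114 had the largest rise, from 6.24, 13.6, 7.82 and 9.22 CPM to 60.2, 126, 83 and 73.2 CPM, 11.6-fold and with no overlap (log2 fold change 3.54, SE 0.22, adjusted p = 1.38e-05). Mei4 also rose (log2 fold change 3.27, SE 0.46, adjusted p = 0.000188), but only to 7.68, 13.4, 7.84 and 9.09 CPM, close to its free RNA level of 2.72 to 6.9 CPM. Tex15 rose 5.21-fold (log2 fold change 2.38, SE 0.19, adjusted p = 1.45e-05), and its round spermatid levels, given above, were beyond its free RNA level in every library. Rec8 rose from 38.8, 63.3, 16.4 and 13.6 CPM, with its lowest values in the Dhx37-/- libraries (3.96-fold, log2 fold change 1.99, SE 0.27, adjusted p = 0.00016).

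The largest fall was that of Mlh3, to 12.4, 5.72, 12.7 and 13 CPM, 12.1-fold lower and under its free RNA level of 14.6 to 25.5 CPM (log2 fold change -3.59, SE 0.22, adjusted p = 1.38e-05). Prdm9 fell from 6.94, 48.7, 12.6 and 6.65 CPM to 1.71, 0.497, 0.98 and 0.848 CPM (log2 fold change -3.48, SE 0.59, adjusted p = 0.000543, free RNA 3.78 to 5.52 CPM), the pachytene to diplotene value of WT replicate 2 standing far above the others. Msh5 fell from 38.8, 49.6, 45.7 and 37.5 CPM to 6.83, 3.98, 5.88 and 5.94 CPM (5.94-fold, log2 fold change -2.57, SE 0.27, adjusted p = 3.80e-05, free RNA 9.4 to 11.5 CPM). Hormad2 fell from 120.0, 118, 210.4 and 353 CPM to 38.4, 15.9, 24.7 and 25 CPM (5.8-fold, log2 fold change -2.54, SE 0.36, adjusted p = 0.000207, free RNA 19.6 to 49.7 CPM). Prdm9, Msh5 and Hormad2 each had separate ranges in these gates.

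Between round and elongating spermatids, 10 of 32 members tested rose and 14 fell, against 40.3% and 39.2% of all genes tested, with a median log2 fold change of -0.15 over the members and 0.06 over all genes. Here 4 of 7 synaptonemal complex genes rose (Syce1, Syce2, Tex12, Syce3) and 2 fell (Sycp2, Sycp1), 4 of 5 break formation genes fell with Mei1 rising, and 3 of 4 cohesins fell with Stag3 rising. Of 7 crossover genes tested, Msh4 and Hfm1 rose and Tex11, Shoc1 and Rnf212 fell. The call of Tex11 was lost with DESeq2, with calling by UMI count alone and without WT replicate 1, WT replicate 2 or Dhx37-/- replicate 1. That of Tex12 was lost with DESeq2, without the filter, with calling by UMI count alone, when thinned and without WT replicate 1, WT replicate 2 or Dhx37-/- replicate 2. Hormad2 was the 1 HORMA axis gene past the threshold, and Rad21l, Prdm9, Spata22 and Ccnb1ip1 were not tested.

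Dmc1, whose protein acts in early prophase, had the largest rise. It stood at 143, 75.7, 218 and 271 CPM in early prophase, 52.7, 62.3, 43.1 and 25.5 CPM in pachytene to diplotene, 12.8, 9.2, 8.08 and 9.69 CPM in round spermatids and 223, 173, 189 and 197 CPM in elongating spermatids. The last step was a 20.4-fold rise present in all 4 libraries (log2 fold change 4.35, SE 0.14, adjusted p = 2.56e-12), and the elongating level was beyond the 27.8 to 43.4 CPM of free RNA. Gm27903 overlaps Dmc1 on the same strand, and which of the annotated genes gave these UMIs was not tested.

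Mei1 rose to 12.7, 6.8, 15.8 and 16.5 CPM (log2 fold change 1.43, SE 0.21, adjusted p = 1.21e-05, free RNA 3.47 to 7.82 CPM) and Syce2 to 203, 187, 235 and 239 CPM from 87.9, 92.8, 101 and 139.6 CPM (log2 fold change 1.08, SE 0.11, adjusted p = 3.01e-07), the latter within its free RNA range. Hormad2 rose in 3 of 4 libraries, to 34.7, 60.5, 44.7 and 48.9 CPM, with overlapping ranges (log2 fold change 0.95, SE 0.23, adjusted p = 0.00176). Among the falls, Rec114 returned to 4.58, 10.6, 12.6 and 11.1 CPM, 8.18-fold lower (log2 fold change -3.03, SE 0.18, adjusted p = 5.19e-10). Sycp1 fell 5.93-fold to 127, 42.9, 78.5 and 79.9 CPM (log2 fold change -2.57, SE 0.17, adjusted p = 2.21e-09). Tex15 fell 5.88-fold to 85, 75.1, 97.9 and 91.4 CPM (log2 fold change -2.55, SE 0.11, adjusted p = 1.62e-11) and Ankrd31 4.57-fold to 41.2, 16.9, 38.4 and 37.1 CPM (log2 fold change -2.19, SE 0.18, adjusted p = 2.67e-08). None of these 4 falling genes had overlapping ranges in the spermatid gates.

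The other 73 genes of the pathway found in the feature table, which act in the same processes and are not members, were counted in the same steps. From spermatogonia to early prophase 8 rose and 4 fell of 53 tested (median log2 fold change -0.11), against 8.88% and 10.3% of all genes. In the step to pachytene and diplotene 10 rose and 27 fell of 66 (-0.51), against 21.7% and 22.9% of all genes. In the step to round spermatids 13 rose and 39 fell of 70 (-0.93), against 35.8% and 36.5%, and in the step to elongating spermatids 17 rose and 28 fell of 65 (-0.14), against 40.3% and 39.2%. In the entry to prophase the largest rises were those of Spdya, 1.87 ± 0.27 (adjusted p = 0.000461) on the log2 scale, Majin, 1.56 ± 0.31 (adjusted p = 0.00299), and Cntd1, 1.56 ± 0.31 (adjusted p = 0.00345). Spdya and Majin act where telomeres attach to the nuclear envelope, and Cntd1 in crossover formation. The largest falls were those of Smc1a, the mitotic counterpart of Smc1b, -1.32 ± 0.34 (adjusted p = 0.0153), Rad54b, -1.23 ± 0.28 (adjusted p = 0.00672), and Rad50, a subunit of the break-resecting MRN complex, -0.82 ± 0.26 (adjusted p = 0.0351).

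In the step to pachytene and diplotene, Rpa1, which coats single-stranded DNA, rose by 1.31 ± 0.22 (adjusted p = 0.000324), Fignl1 by 1.18 ± 0.25 (adjusted p = 0.00174) and 1700102P08Rik by 1.07 ± 0.27 (adjusted p = 0.00544). Esco2, a cohesin acetyltransferase, had a log2 fold change of -2.8 ± 0.4 (adjusted p = 9.45e-05), the central element gene 4930447C04Rik (Six6os1) of -2.7 ± 0.3 (adjusted p = 1.17e-05) and Pms2, a mismatch repair gene, of -2.49 ± 0.33 (adjusted p = 6.02e-05). In the step to round spermatids the extremes were Ctcfl, a testis paralog of CTCF, at 4.34 ± 0.34 (adjusted p = 1.45e-05), Mnd1 at 3.15 ± 0.27 (adjusted p = 1.82e-05) and Mcm8 at 2.53 ± 0.19 (adjusted p = 1.43e-05), and on the falling side Majin at -4.6 ± 0.46 (adjusted p = 2.99e-05), Eme1 at -3.92 ± 0.41 (adjusted p = 3.61e-05) and Gm960 at -3.45 ± 0.3 (adjusted p = 1.86e-05). Mnd1 acts with recombinases and Eme1 with the MUS81 nuclease. In elongating spermatids the repair genes Rad51d and Rad51c rose by 3.5 ± 0.19 (adjusted p = 1.72e-10) and 3.06 ± 0.16 (adjusted p = 1.39e-10) and Smc1a by 2.51 ± 0.19 (adjusted p = 7.77e-09). Ctcfl, Hus1b and Iho1, a break formation gene, fell there, at -4.24 ± 0.19 (adjusted p = 2.53e-11), -3.72 ± 0.37 (adjusted p = 1.94e-07) and -2.78 ± 0.14 (adjusted p = 1.36e-10).

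Genotypes were compared within each gate on the UMI sums of 2 against 2 libraries. In spermatogonia edgeR's quasi-likelihood test called 0 of 25 members tested (0% of all genes tested), and DESeq2 called 0 members. Over all genes, alternatives set beforehand that kept every library, DESeq2 among them, called 0 to 400. An unadjusted p under 0.05 was found for 3 members and for 25.6% of all genes tested. The members summed to 3290 and 3347 CPM in WT and 4582 and 5207 CPM in Dhx37-/-, and 19 of the 36 lay above WT without overlap and 2 below, beside 23.7% and 16.2% of all genes with a UMI. Here and in the gates below, these shares include genes with few UMIs and were not matched to the members in UMI count. A gene with 1 UMI cannot lie apart in this way, so the shares are no like-for-like baseline. In the same gate early prophase markers summed to 467, 370.1, 573 and 662 CPM, Sertoli markers to 197, 179.9, 386 and 339 CPM, and the median UMI count per nucleus was 3657.5, 3598, 5187 and 4758, and their part in the member levels was not tested. The members nearest to the threshold were Tex11, at 98.7, 72, 175 and 339 CPM (log2 fold change 1.4, SE 0.43, adjusted p = 0.102), and Mei1, at 41.9, 25.7, 61.3 and 120.4 CPM (log2 fold change 1.22, SE 0.51, adjusted p = 0.177). On the negative side they were Syce1 (71.8, 87.4, 55.2 and 63 CPM, log2 fold change -0.59, SE 0.4, adjusted p = 0.376) and Shoc1, whose WT values spanned 41.9 and 123 CPM around the Dhx37-/- values of 36.8 and 68.6 CPM (log2 fold change -0.71, SE 0.57, adjusted p = 0.45). Without WT replicate 1, 5 of 28 members passed the threshold, as did 27.2% of all genes tested, and without WT replicate 2, 1 of 27 passed (8.65% of all genes).

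In early meiotic prophase, member levels were mostly higher in the Dhx37-/- libraries. Their sum was 4999.9 and 3984 CPM in WT and 7362 and 8325 CPM in Dhx37-/-. For 28 of the 36 members the lower Dhx37-/- value exceeded the higher WT value, for 1 (Rec8) the reverse held, and for 7 the genotypes overlapped, while 21.2% of all genes with a UMI in this gate lay above without overlap and 14.9% below. Those shares are over 28679 genes, of which 8264 had enough UMIs to be tested, and the share among genes counted like the members was not computed. The median log2 fold change was 0.71 over the 33 members tested and 0.02 over all genes tested. Only Meiob passed the threshold over all genes, of which 0.145% were called higher and 0.121% lower, while 16 members and 22.5% of all genes tested had an unadjusted p under 0.05. Rad21l, Spata22 and Ccnb1ip1 were not tested.

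Meiob, whose protein binds single-stranded DNA at recombination sites, was at 26, 20.2, 203 and 226 CPM (8, 4, 78 and 277 UMIs). The WT libraries thus rest on few UMIs and the Dhx37-/- libraries are far above them, 8.61-fold (log2 fold change 3.11, SE 0.43, adjusted p = 0.0134). The next in p were Hormad1 (log2 fold change 1.46, SE 0.32, adjusted p = 0.0547), Rnf212 (log2 fold change 2.46, SE 0.56, adjusted p = 0.0564) and Rad51ap2 (log2 fold change 3.29, SE 0.76, adjusted p = 0.0583), none past the threshold. The WT libraries held only 4 and 2 UMIs of Rnf212 and 1 and 1 of Rad51ap2, against 50 and 28 of Hormad1. DESeq2 called Meiob and Hormad1, and without WT replicate 1, 9 of 34 members passed (12.2% of all genes) and 6 of 34 without WT replicate 2 (6.03% of all genes). Thinned to 1000 UMIs per nucleus, 0 passed.

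Other measures moved with genotype in this gate. The median UMI count per nucleus was 3302, 3789, 4140 and 4399.5, the gate held 87, 53, 82 and 250 nuclei, pachytene to diplotene markers were higher in both Dhx37-/- libraries (values above), and the 12 Sertoli markers summed to 198, 222, 535 and 335 CPM. The early prophase markers themselves summed to 1792, 1656, 1857 and 1917 CPM. The part of these in the member differences was not tested. Fewer or more nuclei of a substage in the gate and a change of RNA within nuclei cannot be told apart in these sums.

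In pachytene to diplotene spermatocytes, 6 members were higher in Dhx37-/- (Sycp2, Hfm1, Meiob, Mcmdc2, Trip13 and Hormad2) and 1 was lower (Rec8) of 33 tested. This was read against 7.81% of all genes tested called higher and 6.75% lower, with no test of the members as a list. Their median log2 fold change was 0.36 against -0.05 over all genes. An unadjusted p under 0.05 was found for 10 of the 33 members and for 33.9% of all genes tested. Without overlap, 15 members lay above WT and 10 below, beside 21.3% and 27% of all genes with a UMI. Rad21l, Mei4 and Spata22 were not tested.

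Sycp2 was at 255, 182, 632 and 966 CPM (368, 187, 2505 and 6394 UMIs). Each Dhx37-/- library was above both WT libraries, and the fold was 4.08 (log2 fold change 2.03, SE 0.32, adjusted p = 0.00959). Hfm1 was at 24.3, 14.6, 64.6 and 111 CPM (35, 15, 256 and 732 UMIs), 4.96-fold higher (log2 fold change 2.31, SE 0.4, adjusted p = 0.0122). Meiob, called in this gate as in early prophase, was at 18, 18.5, 62.1 and 87.2 CPM (4.58-fold, log2 fold change 2.2, SE 0.34, adjusted p = 0.00942).

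Mcmdc2, a divergent MCM family gene needed for repair on the homolog, was at 12.5, 17.5, 30.5 and 58 CPM (log2 fold change 1.76, SE 0.44, adjusted p = 0.031), where the WT values rest on 18 UMIs each. Hormad2 was at 120.0, 118, 210.4 and 353 CPM, the WT libraries being almost equal (log2 fold change 1.41, SE 0.3, adjusted p = 0.0214). Trip13 was at 16, 8.76, 28.8 and 38.2 CPM (log2 fold change 1.56, SE 0.42, adjusted p = 0.0382). Rec8 ran the other way, at 38.8, 63.3, 16.4 and 13.6 CPM, with both WT libraries above both Dhx37-/- libraries (3.03-fold lower, log2 fold change -1.6, SE 0.35, adjusted p = 0.0228). DESeq2 called these 7 and Rnf212, which was at 6.94, 12.7, 18.7 and 34.8 CPM. Over all genes, alternatives set beforehand that kept every library, DESeq2 among them, called 205 to 3760 in this gate.

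**Figure D3:**
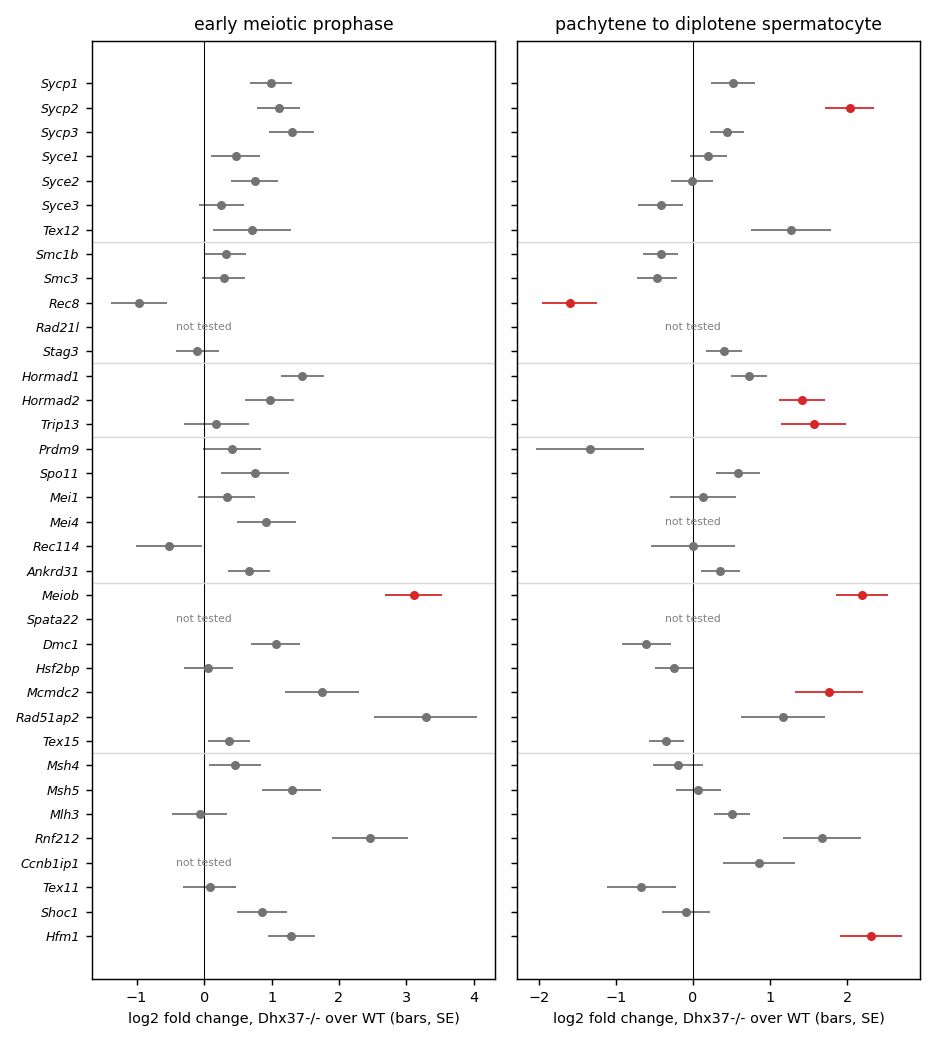
Log2 fold change of Dhx37-/- over WT (points) with its standard error (bars) for each member in early meiotic prophase and in pachytene to diplotene spermatocytes, with members past an adjusted p of 0.05 in red. Meiob is red in both panels, at 3.11 and 2.2, and Rec8 is the red point on the negative side, at -1.6.

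The other members gave no call in this gate, and some ran against the called ones. The rest of the synaptonemal complex had log2 fold changes of 0.52 ± 0.29 (SE, adjusted p = 0.227) for Sycp1, 0.44 ± 0.22 (SE, adjusted p = 0.19) for Sycp3 and -0.42 ± 0.29 (SE, adjusted p = 0.338) for Syce3. Smc1b and Smc3 were at -0.42 ± 0.22 (SE, adjusted p = 0.213) and -0.47 ± 0.26 (SE, adjusted p = 0.24), Spo11 at 0.59 ± 0.29 (SE, adjusted p = 0.178) and Mlh3 at 0.51 ± 0.23 (SE, adjusted p = 0.153). Prdm9 had -1.34 ± 0.7 (SE, adjusted p = 0.208) on values of 6.94, 48.7, 12.6 and 6.65 CPM, where WT replicate 2 alone was high. An adjusted p above the threshold does not show that these members are alike in the genotypes.

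The pachytene to diplotene gates differed between genotypes in depth. Median UMIs per nucleus were 3385, 3511, 5614 and 7843, and nuclei above 5000 genes numbered 1, 2, 81 and 168, that is 252 of the 1939. With these nuclei left out, Sycp2, Hfm1, Meiob and Hormad2 still passed and Mcmdc2, Trip13 and Rec8 did not, while 3.84% of all genes passed. All 7 kept separate genotype ranges there: Sycp2 was at 245, 185, 494 and 869 CPM, Hfm1 at 24, 14.9, 67.7 and 124, Meiob at 18.3, 18.9, 74.9 and 101, Hormad2 at 116, 118, 231 and 394, Mcmdc2 at 12, 17.9, 29.3 and 62.6, Trip13 at 16.2, 8.95, 20 and 34.4 and Rec8 at 39.5, 64.6, 20 and 16.5 CPM. Thinned to 1000 UMIs, Sycp2 alone passed of 24 members tested (2.24% of all genes).

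**Figure D4:**
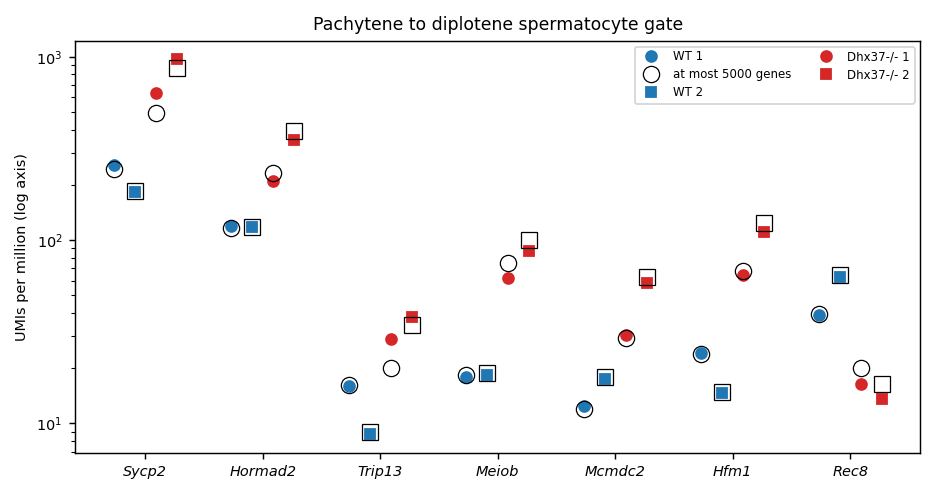
Level in CPM, on a log axis, of the 7 members called between genotypes in the pachytene to diplotene gate, per library, with filled symbols for all nuclei of the gate and open symbols for nuclei with at most 5000 genes. The Dhx37-/- symbols lie above the WT symbols for 6 genes and below for Rec8 (13.6 and 16.4 against 38.8 and 63.3 CPM), with filled and open symbols alike.

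Single libraries also mattered. Without Dhx37-/- replicate 2, Sycp2, Hfm1 and Meiob remained past the threshold and the other 4 did not (2.58% of all genes passed). Without WT replicate 1, 12 of 33 members passed (20.1% of all genes) and without WT replicate 2, 11 (21.2%). Early prophase markers summed to 560, 493, 711 and 861 CPM in this gate and round spermatid markers to 2597, 2235, 2895 and 2982 CPM, higher in both Dhx37-/- libraries. Sertoli markers summed to 171, 160, 276 and 173 CPM, and elongating spermatid markers overlapped between genotypes (5950, 5554, 6615 and 5086 CPM). The part of stage mixture and of RNA from other cells in the 7 differences was not tested.

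Within the Dhx37-/- libraries, nuclei of this gate above 5000 genes can be set beside those at or below it. In both libraries 7 members were higher above 5000 genes (Sycp2, Stag3, Trip13, Spo11, Mei1, Mlh3 and Ccnb1ip1) and 24 were lower, beside 17.8% and 39.5% of all genes with a UMI there. Among genes with at least 100 UMIs, 7 of 29 members were higher and 19 lower, beside 24.7% and 54.6% of all such genes. Sycp2 had 866 and 1094 CPM above that number against 494 and 869 CPM at or below it, and Trip13 had 43.6 and 43.3 CPM above that number against 20 and 34.4 CPM at or below it. Prdm9 was nearly lost in the nuclei rich in genes, with 1.36 and 0.698 CPM above that number against 19.2 and 11.2 CPM at or below it, and Sycp1 had 96 and 201 CPM above that number against 261 and 354 CPM at or below it. These are nuclei of 2 libraries, with no test.

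In round spermatids edgeR's quasi-likelihood test called 0 of 31 members (0.0114% of all genes tested), 0 had an unadjusted p under 0.05 (6.84% of all genes), and DESeq2 called 0 members. Over all genes, alternatives set beforehand that kept every library, DESeq2 among them, called 1 to 51. Without overlap, 9 members lay above WT and 7 below, beside 18.2% and 13.6% of all genes with a UMI. The smallest p values belonged to Hormad1 (52.9, 40.3, 66.4 and 64.6 CPM, log2 fold change 0.42, SE 0.26, adjusted p = 0.769) and Trip13 (11.1, 21.1, 20.6 and 31.4 CPM, free RNA 16.4 to 24.7 CPM, log2 fold change 0.61, SE 0.37, adjusted p = 0.77) on the positive side. On the negative side they belonged to Msh4 (49.5, 43, 23.3 and 39.6 CPM, log2 fold change -0.61, SE 0.31, adjusted p = 0.741) and Rec8 (log2 fold change -0.41, SE 0.24, adjusted p = 0.763). By library, free RNA held Hormad1 at 91.4, 90.8, 112 and 133 CPM and Trip13 at 20.9, 19.4, 16.4 and 24.7 CPM. It held Msh4 at 48.9, 41.8, 25.5 and 26.7 CPM and Rec8 at 69.2, 76.2, 33.3 and 54.6 CPM. The part of free RNA in these differences was not tested. Without WT replicate 1, Rec114 passed (5.14% of all genes), and without WT replicate 2, Trip13 (7.88%).

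In elongating spermatids edgeR called 0 of 33 members (0% of all genes tested) with 5 at an unadjusted p under 0.05 (11.4% of all genes), and DESeq2 called 0 members. Over all genes, alternatives set beforehand that kept every library, DESeq2 among them, called 0 to 209. Without overlap, 20 of the 36 members lay above WT and 3 below, beside 23.4% and 13.7% of all genes with a UMI. In the same gate Sertoli markers summed to 250, 238, 481 and 349 CPM and Leydig markers to 108, 86.6, 210 and 175 CPM. Pachytene to diplotene markers overlapped between genotypes (1975, 1615, 1906 and 1712 CPM), and median UMIs per nucleus were 2140, 2669, 2761.5 and 3315. The part of these in the member levels was not tested. Meiob was at 6.21, 4.22, 10.6 and 14.1 CPM (log2 fold change 1.16, SE 0.38, adjusted p = 0.375, free RNA 12.1 to 29.1 CPM) and Shoc1 at 5.56, 3.52, 10.2 and 10.1 CPM (log2 fold change 1.09, SE 0.38, adjusted p = 0.379, free RNA 8.87 to 21.2 CPM). On the negative side stood Msh4 at 66.4, 77.2, 47.7 and 51.6 CPM (log2 fold change -0.64, SE 0.24, adjusted p = 0.395) and Hsf2bp at 75.8, 73.2, 49.5 and 57.4 CPM (log2 fold change -0.58, SE 0.23, adjusted p = 0.407, free RNA 53.8 to 62.4 CPM). By library, free RNA held Meiob at 13.3, 12.1, 19.7 and 29.1 CPM and Shoc1 at 21.2, 9.68, 8.87 and 18.1 CPM. It held Msh4 at 48.9, 41.8, 25.5 and 26.7 CPM and Hsf2bp at 60.9, 62.4, 56 and 53.8 CPM. The part of free RNA in these 4 differences was not tested. Without WT replicate 1, 10 of 34 members passed (14.6% of all genes), and without WT replicate 2, 2 of 34 (6.09%).

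Over all kept nuclei edgeR called 0 of 35 members (0% of all genes tested) with 7 at an unadjusted p under 0.05, that is 20% of the members against 19.8% of all genes, and DESeq2 called Meiob alone among the members. Over all genes, alternatives set beforehand that kept every library, DESeq2 among them, called 0 to 801. Without overlap, 20 of the 36 members lay above WT and 2 below, beside 28.8% and 18.9% of all genes with a UMI. Meiob was at 7.79, 9.07, 19.9 and 30.6 CPM (log2 fold change 1.5, SE 0.32, adjusted p = 0.183) and Hormad1 at 55.9, 58.9, 101 and 121 CPM (log2 fold change 0.86, SE 0.23, adjusted p = 0.186). Rec8 was at 54.2, 76.7, 38.4 and 44.4 CPM (log2 fold change -0.74, SE 0.26, adjusted p = 0.207) and Msh4 at 49.1, 52.5, 33.7 and 40.5 CPM (log2 fold change -0.54, SE 0.24, adjusted p = 0.259). These sums mix stages. Early prophase held 0.879%, 0.639%, 0.914% and 2.43% of kept nuclei, and pachytene to diplotene 3.96%, 3.33%, 5.97% and 7.13%. Round spermatids held 5.66%, 10.6%, 8.81% and 16%. The part of gate shares in these values was not tested. Without WT replicate 1, 8 of 35 members passed (22.9%), as did 23.6% of all genes tested, and without WT replicate 2, Meiob alone (6.88% of all genes).

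Of the other pathway genes, 12 were higher and 3 lower in Dhx37-/- among 69 tested in pachytene to diplotene (7.81% and 6.75% of all genes), with a median log2 fold change of 0.25. These counts became 2 and 1 without nuclei above 5000 genes (1.93% and 1.91% of all genes), 1 and 0 of 50 tested when thinned to 1000 UMIs (1.31% and 0.929%) and 1 and 0 without Dhx37-/- replicate 2 (1.87% and 0.712%). In the other gates and over all nuclei edgeR called 0 of them. The largest rises were those of Exo1, an exonuclease that resects breaks, at 2.77 ± 0.77 (adjusted p = 0.0406) on the log2 scale, 4930447C04Rik at 2.5 ± 0.4 (adjusted p = 0.0103) and Rad54b at 2.26 ± 0.57 (adjusted p = 0.0312). The falls were Sycp2l at -2.15 ± 0.6 (adjusted p = 0.042), Ctcfl at -1.79 ± 0.5 (adjusted p = 0.0413) and Brca1 at -1.23 ± 0.26 (adjusted p = 0.02).

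Whether the genotype difference itself changed between stages was tested as an interaction. From spermatogonia to early prophase 0 of 33 members were called by edgeR (0.00982% of all genes tested), with 6 at an unadjusted p under 0.05 (10.3% of all genes), and DESeq2 called 0. From early prophase to pachytene and diplotene 0 of 35 members were called (0.542% of all genes), with 14 at an unadjusted p under 0.05 (10.8% of all genes), and DESeq2 called 0. The interaction of Dmc1 passed without the filter on low counts, without doublets, with 1 more marker required and without either WT replicate, and that of Meiob passed in no alternative.

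From pachytene to diplotene spermatocytes to round spermatids the interaction passed for 7 of 34 members, 6 of them negative (Hfm1, Mcmdc2, Sycp2, Rnf212, Meiob and Hormad2) and 1 positive (Rec8), against 3.91% and 4.03% of all genes tested. In the WT libraries Hfm1 went from 24.3 and 14.6 CPM to 28.6 and 33.3 CPM, and in the Dhx37-/- libraries from 64.6 and 111 CPM to 22 and 27 CPM (free RNA 28.3 to 56.5 CPM). The Dhx37-/- values were thus above WT in the spermatocyte gate and just below WT in the spermatid gate (log2 fold change -2.72, SE 0.41, adjusted p = 7.46e-05). Sycp2 went from 255 and 182 CPM to 167 and 124 CPM in WT and from 632 and 966 CPM to 161 and 139.7 CPM in Dhx37-/- (log2 fold change -2.05, SE 0.29, adjusted p = 3.39e-05, free RNA 148 to 371 CPM). These values share the pachytene to diplotene sums with the genotype comparison above. Without Dhx37-/- replicate 2, Hfm1 and Sycp2 remained past the threshold and the other 5 did not. Without nuclei above 5000 genes the calls of Rec8 and Rnf212 were lost, and without WT replicate 1 those of Hormad2, Meiob and Rnf212.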

How the data were processed

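Single-nucleus RNA-seq of whole testis was measured in 2 WT and 2 Dhx37-/- libraries (10x 3′ v3). Per the file headers, the deposited values are raw UMI counts per gene and barcode from Cell Ranger 7.2.0, unfiltered and not normalized. The submitters' processing notes also name bcl2fastq, Seurat 3.1.1, GRCm38 and mm10, and the study's methods name another mouse build, so no coordinate is given as the files' own. Whether intronic reads were counted is not given in the sources used here.

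Nuclei were called from the raw barcodes, expecting 8000 nuclei per library. Barcodes above the 99th percentile of UMIs divided by 10 were kept, as were others that differed from the free RNA profile (barcode ranks 45000 to 90000, 10000 simulations, adjusted p 0.01), with at least 500 UMIs, at least 500 genes and at most 25% mitochondrial UMIs, which removed 0. The 5000-gene limit of the study was an alternative. Called doublets (4.33% to 5.49% per library) stayed in, and leaving them out was an alternative. The replicates may share more than a genotype, so p-values measure only the spread between these libraries.

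Gates compare UMIs of marker lists with a posterior of at least 0.95 and at least 2 own markers. The folds (5 for rare classes, 3 for spermatocytes and elongating spermatids, 2.5 for round spermatids, 0.7 for other markers) were set from marker UMIs after several settings had been tried, with no member value in view. Counts were summed per library and gate (at least 20 nuclei) and tested with edgeR 4.0.16 (quasi-likelihood, TMM, filterByExpr, Benjamini-Hochberg over all genes tested, threshold 0.05) in R 4.3.3. Stage steps had the library as a block, and genotype fits had none. DESeq2 1.42.0, other normalization, no filter, 1 more marker, calling by UMI count alone, thinning to 1000 UMIs, a replicate block and leaving out each library were alternatives. The script was tested on simulated data. Gate shares were compared by exact permutation tests, two-sided, in scipy 1.17.1, and nuclei were handled with scanpy 1.11.5 in Python 3.11.15.

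Members and lists were chosen with earlier results of these data known. Named members are the 4 largest rises and falls past the threshold per stage step, every called member per genotype fit or else the 2 smallest p per direction, and the members with most and fewest UMIs per group, and of the other pathway genes the 3 largest per direction. Values of members outside this rule are given as examples chosen after they were seen. Symbols of the lists that the feature table does not hold were left out. Motif windows were set to 250 bases after 300 had been tried, to leave out transcribed bases. Windows of RefSeq came from GRCm38.p6. Same-numbered libraries of the genotypes did not deviate together (correlations of deviations -0.22 to 0.0794), so the numbers were not used as pairs.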

Additional observations from a re-analysis of the deposited data

Results flagged for a closer look

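The genotype difference of 7 members was not the same in pachytene to diplotene spermatocytes and in round spermatids, by the test of the difference itself (edgeR, adjusted over all genes tested, log2 of the Dhx37-/- over WT ratio in round spermatids minus that in spermatocytes). It was -2.72 ± 0.41 (SE, adjusted p = 7.46e-05) for Hfm1, -2.21 ± 0.49 (SE, adjusted p = 0.00431) for Mcmdc2, -2.05 ± 0.29 (SE, adjusted p = 3.39e-05) for Sycp2 and -1.89 ± 0.51 (SE, adjusted p = 0.0192) for Rnf212. It was -1.71 ± 0.48 (SE, adjusted p = 0.0237) for Meiob, -1.49 ± 0.36 (SE, adjusted p = 0.00884) for Hormad2 and 1.17 ± 0.34 (SE, adjusted p = 0.0313) for Rec8, the 1 positive value. In round spermatids the 4 libraries held Mcmdc2 at 13.7, 9.7, 7.35 and 10.1 CPM, Rnf212 at 12.8, 16.9, 12.7 and 13.3 CPM, Meiob at 9.39, 4.97, 10.3 and 10.4 CPM and Hormad2 at 38.4, 15.9, 24.7 and 25 CPM, and the genotypes overlapped for Mcmdc2, Rnf212 and Hormad2. Among these 7, DESeq2 called 4 (Hfm1, Mcmdc2, Sycp2 and Hormad2), and thinning to 1000 UMIs per nucleus left Hfm1 and Sycp2. Over all genes, alternatives set beforehand that kept every library, these among them, called 446 to 2173. Leaving out nuclei above 5000 genes ended the calls of Rec8 and Rnf212, leaving out WT replicate 1 those of Hormad2, Meiob and Rnf212, WT replicate 2 that of Rec8, Dhx37-/- replicate 1 those of Meiob and Rec8, and Dhx37-/- replicate 2 those of Hormad2, Mcmdc2, Meiob, Rec8 and Rnf212. Free RNA levels were 3.34 to 9.81 CPM for Mcmdc2, 9.04 to 10.8 for Rnf212, 12.1 to 29.1 for Meiob and 19.6 to 49.7 for Hormad2, and their part in the spermatid values was not tested.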

How the results depend on the processing

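Numbers below count members past the threshold. In the step from spermatogonia to early prophase 13 passed, 6 with DESeq2, 2 of 12 tested when thinned to 1000 UMIs, and 5 to 18 when 1 library was left out (5 without Dhx37-/- replicate 2, 18 without WT replicate 2). In the step to pachytene and diplotene 19 passed, 11 of 24 tested when thinned, and 11 to 21 with 1 library left out (11 without Dhx37-/- replicate 2). The later steps, 26 and 24, ranged from 18 to 27 and from 19 to 24. Between genotypes the spermatogonia count of 0 became 1 without the filter on low counts (Tex11) and was 0 to 5 with 1 library left out. The early prophase count of 1 was 2 with DESeq2, 7 without the filter, 0 when thinned and 1 to 9 with 1 library left out. The pachytene to diplotene count of 7 was 4 without nuclei above 5000 genes, 1 when thinned and 3 to 12 with 1 library left out. The round spermatid, elongating spermatid and all-nuclei counts of 0 were 0 to 1, 0 to 10 and 0 to 8 with 1 library left out, the last pair highest without WT replicate 1 and the first 1 without either WT replicate, and for all nuclei 1 with DESeq2 and 1 without the filter (Meiob with DESeq2). The interaction counts of 0, 0 and 7 were 0 to 1, 0 to 4 and 2 to 7 with 1 library left out. The second was also 1 without the filter, 1 without doublets, 1 with 1 more marker required and 1 when thinned, and the third was 4 with DESeq2 and 2 when thinned. The causes were not tested, beyond the fewer UMIs and samples that thinning and leaving out leave.

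With the replicate number as a block, which does not pair these libraries, 4 members passed in early prophase (2.31% of all genes), 6 in pachytene to diplotene (9.8%) and 0 in the other genotype fits. With the numbers crossed, an alternative chosen after seeing the data, the counts were 2 in spermatogonia (16.2% of all genes), 0 in early prophase, 9 in pachytene to diplotene (24.8%) and 2 over all nuclei (4.82%).

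Of the named fold changes under the alternatives, 672 kept their direction and side of the threshold, 49 lost and 19 gained the threshold and 1 reversed, that of Shoc1 between genotypes in spermatogonia, -0.71 in the main result, 0.22 without WT replicate 2 and -1.25 without WT replicate 1. Over all genes tested, calls were 1503 in the step to early prophase (225 to 2472 under other settings), 5915, 13381 and 14632 in the later steps (2225 to 7557, 7427 to 16691 and 10264 to 18332), and 527 to 2166, 3253 to 5949, 10908 to 13901 and 13858 to 15300 with 1 library left out. Between genotypes they were 0 in spermatogonia (0 to 400), 22 in early prophase (0 to 224), 2515 in pachytene to diplotene (205 to 3760), 2 in round spermatids (1 to 51), 0 in elongating spermatids (0 to 209) and 0 over all nuclei (0 to 801), and with 1 library left out 14 to 2839, 11 to 1245, 409 to 4261, 5 to 1476, 6 to 3139 and 23 to 7493. In the interactions they were 1 (1 to 74), 86 (25 to 298) and 1701 (446 to 2173), and 14 to 173, 32 to 545 and 282 to 2382 with 1 library left out. Small gates limit depth, since spermatogonia and early prophase hold 49 and 53 nuclei in WT replicate 2.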
